A study of Mus musculus with 28 samples.

Results

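The BCL2 family sets the threshold at which a cell dies through its mitochondria. Antiapoptotic members bind and restrain the pore-forming effectors, and the BH3-only members either block the antiapoptotic proteins or engage the effectors directly. B lymphocytes and plasma cells are known to lean on different survival members, which is why the balance within the family is followed in B cell and plasma cell malignancy. The genes described here were 4 antiapoptotic members (Bcl2, Bcl2l1, Bcl2l2 and Mcl1), 2 effectors (Bax and Bak1) and 4 BH3-only members (Bad, Bid, Bcl2l11 and Pmaip1), chosen by name. The probe annotation listed 30 probes for 9 of these 10 genes, of 45281 probes and 19057 genes on the array, and Bax was not analysed here. All 9 genes had a probe that passed the detection filter, as did 23 of the 30 probes.

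RNA was measured on Illumina bead arrays in 28 mouse samples, all on the BALB/c background. The first group held 14 whole plasma cell tumors obtained by transferring premalignant B cells into recipients (adoptive transfer), referred to as transfer tumors and sampled as oil granuloma at ages of 105 to 158 days. The second held 11 whole plasma cell tumors that arose spontaneously, sampled as lymph node at 40 to 162 days. The strain of both kinds is given as C.iMyc/IL-6, a name that refers to Myc and IL-6, and the labels say neither which promoters are used nor what the recipients of transferred cells carried. The third group held 3 samples of normal splenic B cells, taken from BALB/c mice at 90 days, with neither gene in the strain name. Tumor kind and tissue coincide, so they cannot be told apart, and neither can tumor and whole tissue when tumors are set against normal B cells. The labels do not say whether samples came from separate animals, so p-values measure the spread between these samples, which may be technical.

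The number of probes detected on an array was 11544 to 16827 in transfer tumors, 14472 to 16756 in spontaneous tumors and 15633 to 16866 in normal B cells, where detection means a detection p under 0.05. Mean levels of 7 mature B cell markers were 5.51 to 6.71 log2 units in transfer tumors, 5.55 to 5.97 in spontaneous tumors and 9.99 to 10.1 in normal B cells. Those of 8 plasma cell markers were 7.16 to 9.71 in transfer tumors, 8.65 to 9.80 in spontaneous tumors and 7.18 to 7.28 in normal B cells. Means of 12 fibroblast and matrix markers were 6.02 to 9.17 in transfer tumors, 6.98 to 8.50 in spontaneous tumors and 4.77 to 4.82 in normal B cells. For 10 endothelium markers they were 5.26 to 8.84, 7.31 to 7.86 and 5.21 to 5.49. Transfer tumors 1 and 5 stood apart from the other 12. Tumor 5 had the lowest plasma cell mean of the tumors (7.16), just below the normal samples, and the highest neutrophil mean (10.1) and immediate early gene mean (8.66), and tumor 1 had the fewest detected probes. Exocrine pancreas markers, with a mean above 7, were raised in 1 transfer tumor (tumor 1), 6 spontaneous tumors and 0 normal samples. The Y-linked gene Eif2s3y was detected in 0 of 14 transfer tumors, 8 of 11 spontaneous tumors and 3 of 3 normal samples. The female-expressed gene Xist was detected in 14 of 14, 6 of 11 and 0 of 3. In these genes transfer tumors and normal samples were fully split, so sex and tumor cannot be told apart in that comparison. Between the tumor kinds the sex-linked genes differed in part. Except where a value is given, the part of these transcripts in the results was not tested.

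In both kinds of tumor the survival gene Bcl2 was far below its level in normal B cells and the survival gene Bcl2l1, which encodes BCL-XL, was above it. The BH3-only genes Bid and Pmaip1 fell and the BH3-only gene Bad rose in both kinds. Bcl2l2 and Bcl2l11 passed the test in spontaneous tumors only, though the Bcl2l11 differences were close (0.83 in transfer and 0.98 in spontaneous tumors). Mcl1 and Bak1 passed it in neither. In limma, with Benjamini-Hochberg adjusted p under 0.05 over 11804 genes, 5 of 9 members were called in transfer tumors against normal B cells (2 higher, 3 lower), where 36.5% of all genes tested were called, 19.8% higher and 16.7% lower. In spontaneous tumors against normal B cells 7 of 9 were called (4 higher, 3 lower), where the share of all genes was 36.4%, with 18.5% higher and 17.9% lower. The median log2 fold change of the 9 members was 0.26 in transfer tumors and 0.19 in spontaneous tumors, against 0.10 and 0.08 for all genes tested. Both medians are the value of Bak1, whose probe was detected on 5 of 28 arrays, so they rest on a reading near background. Without transfer tumors 1 and 5 the counts were 7 (3 higher, 4 lower) in transfer tumors and 8 (4 higher, 4 lower) in spontaneous tumors, while the share of all genes called was also larger, at 46.0% and 44.5%. Both comparisons use the same 3 normal samples. With median scaling of the arrays in place of quantile normalization, the median of all genes moved to -0.08 and -0.07, and 33.3% and 32.2% of the called genes were higher in the tumors, against 54.3% and 50.8% here.

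**Figure D1:**
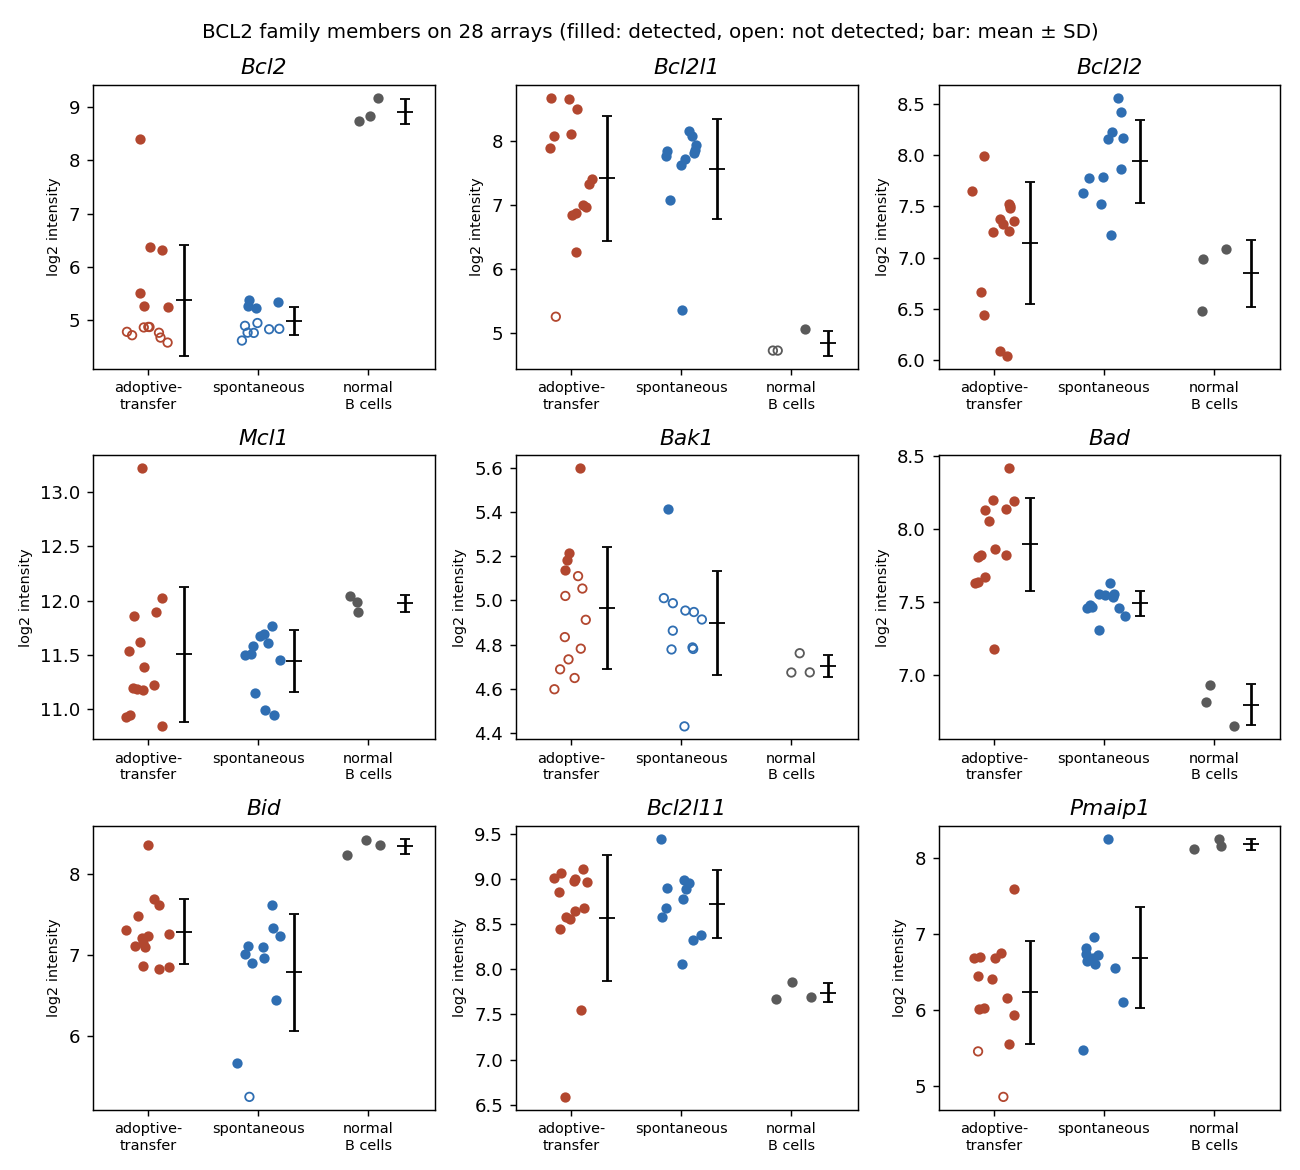
Normalised log2 intensity of the probe that stands for each of the 9 measured members, with a point per array, for 14 transfer tumors, 11 spontaneous tumors and 3 normal B cell samples. Filled points were detected, open points were not, and bars are mean ± SD. Bcl2 sits between 4.58 and 8.41 in transfer tumors and above 8.7 in normal B cells. Bcl2l1 is above the normal samples in all 25 tumors, of which transfer tumor 1 did not detect it.

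Bcl2 (chr1:106538176-106714290, GRCm38.p6 coordinates from RefSeq) encodes the founding antiapoptotic protein of the family. Its representative probe read 4.58 at the lowest, 4.88 at the median and 8.41 log2 units at the highest in transfer tumors, and 4.62, 4.90 and 5.38 in spontaneous tumors. Normal B cells read 9.17, 8.83 and 8.73. Every tumor was below every normal sample on this probe, which was detected in 6 of 14 transfer tumors and 4 of 11 spontaneous tumors, against 3 of 3 normal samples. Bcl2 fell by 3.53 ± 0.47 on the log2 scale in transfer tumors (SE, limma adjusted p = 6.8e-07), an 11.6-fold lower intensity. In spontaneous tumors it fell by 3.92 ± 0.48 (adjusted p = 1.77e-07), or 15.1-fold. Against normal B cells, groups did not overlap for 4 of 9 members in transfer tumors (2 above, 2 below), where the share of all genes was 19.4% (9.74% above, 9.65% below). They did not overlap for 7 of 9 in spontaneous tumors (4 above, 3 below), where the share was 38.6% (20.2% above, 18.4% below). In bulk RNA, fewer cells of a type and less RNA per cell cannot be told apart, and the mean of the mature B cell markers was lower in every tumor too.

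The spread of Bcl2 within transfer tumors was set by a few samples. Tumor 5 stood at 8.41, tumor 9 at 6.38 and tumor 7 at 6.31, and the other 11 were lower. Tumor 5 also had the highest mature B cell mean (6.71) and T cell mean (6.80) of its group, and the part of these cells in its Bcl2 level was not tested. Of the 9 Bcl2 probes 6 passed the detection filter, and all 6 were called lower in both kinds of tumor. On the second bright probe, ILMN_1249021, transfer tumor 5 read 8.79, above the normal samples at 8.65, 8.53 and 8.49, while the other 13 transfer tumors and all 11 spontaneous tumors were below them. Where a probe was detected in both groups its log2 fold change was between -3.53 and -2.96 in transfer tumors and between -3.92 and -3.08 in spontaneous tumors. Probes ILMN_2597567 and ILMN_1215796 were detected in normal B cells only and were at least 1.79-fold and 2.55-fold lower in transfer tumors, and at least 1.83-fold and 2.61-fold lower in spontaneous tumors. Probe ILMN_2682162, which is annotated to another Bcl2 transcript record, was at least 10.1-fold lower in spontaneous tumors, where no array detected it.

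Bcl2l1 (chr2:152758732-152833803) encodes BCL-XL, an antiapoptotic protein that holds BAX, BAK and BIM in check. Its probe read 5.26 at the lowest, 7.37 at the median and 8.68 log2 units at the highest in transfer tumors, and 5.36, 7.81 and 8.15 in spontaneous tumors. The normal samples read 5.07, 4.73 and 4.73, and it was detected in 1 of 3 of them, against 13 of 14 transfer tumors and 11 of 11 spontaneous tumors. Every tumor was above every normal sample on this probe. The lowest, transfer tumor 1 (5.26), was the tumor that did not detect it, so its place above them rests on a background reading. Bcl2l1 rose by 2.58 ± 0.52 on the log2 scale in transfer tumors (SE, limma adjusted p = 0.00023), a 5.98-fold higher intensity. In spontaneous tumors it rose by 2.73 ± 0.53 (adjusted p = 0.00016), or 6.62-fold. Without background correction the Bcl2l1 change was 1.11 and 1.17, and the Bcl2 change -1.88 and -2.05, for transfer and spontaneous tumors, with the same calls.

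The tumors nearest to normal B cells in Bcl2l1 were transfer tumor 1 (5.26), spontaneous tumor 5 (5.36) and transfer tumor 5 (6.28). Transfer tumor 1 and spontaneous tumor 5 had exocrine pancreas means of 8.79 and 14.63, and the other 5 spontaneous tumors with pancreas transcripts had Bcl2l1 between 7.08 and 7.87. Of the 4 Bcl2l1 probes 3 were called higher in both kinds of tumor. ILMN_2647885 and ILMN_2742557, detected in no normal sample, were at least 2.23-fold and 1.85-fold higher in transfer tumors and at least 2.6-fold and 2.25-fold higher in spontaneous tumors. Transfer tumor 1 was below every normal sample on each, 13 of 14 transfer tumors and 11 of 11 spontaneous tumors were above them on ILMN_2647885, and 12 of 14 and 10 of 11 on ILMN_2742557. The fourth probe, ILMN_1255430, which rests on a separate cDNA record, was detected in 3 of 14 transfer tumors, 4 of 11 spontaneous tumors and 0 of 3 normal samples, and missed the threshold (adjusted p = 0.199 and 0.12). Averaging the detected probes gave Bcl2l1 changes of 1.56 and 1.76.

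**Figure D2:**
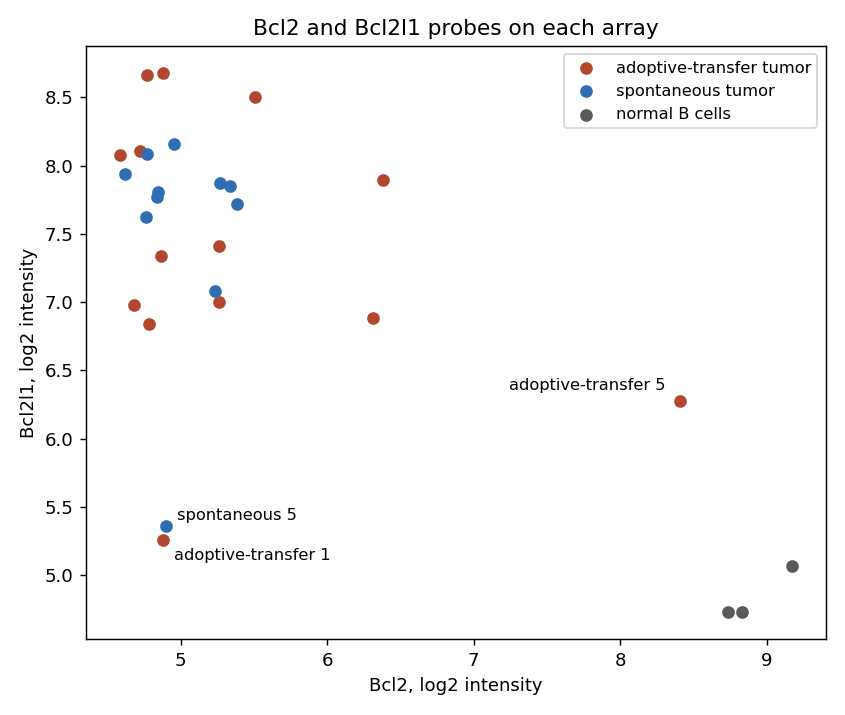
Bcl2 (x axis) and Bcl2l1 (y axis) in normalised log2 intensity, a point per array, for transfer tumors, spontaneous tumors and normal B cells. The tumors lie at the upper left and the 3 normal samples at the lower right, with transfer tumor 5 (Bcl2 8.41, Bcl2l1 6.28) between them and transfer tumor 1 and spontaneous tumor 5 at the lower left.

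Since tumors and normal samples did not overlap in either representative probe, the difference between Bcl2l1 and Bcl2 on an array separates them too, and it is given here for its size. Set to 0 at the mean of the normal samples, it was 1.94 log2 units at the lowest, 6.29 at the median and 7.97 at the highest in transfer tumors. In spontaneous tumors it was 4.53, 6.93 and 7.39, and in normal B cells it lay between -0.03 and 0.07. The lowest tumor was transfer tumor 5. Most tumors did not detect the Bcl2 probe and 2 of 3 normal samples did not detect the Bcl2l1 probe, so these sizes rest in part on readings at background. The difference between Bcl2l1 and Mcl1, on the same scale, was 0.19 to 4.69 in transfer tumors and 1.55 to 4.08 in spontaneous tumors. It was -0.19 to 0.22 in normal B cells, and 24 of 25 tumors were above them. These are differences between shifts of 2 probes, and the levels of 2 probes cannot be compared with each other.

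The start sites of Bcl2 and Bcl2l1 are shown because these 2 genes carry the opposite shifts, and that of Bcl2l11 because it holds the only motif match among the measured members. Each sequence covers 250 bases before to 50 bases after an annotated start site, from RefSeq on GRCm38.p6, read on the gene's own strand, and for Bcl2l1 and Bcl2l11, which have several windows in the table used here, the one farthest upstream was taken. The annotated Bcl2l1 gene extends further upstream than its printed window, so this is not its outermost start site. Capitals mark CG dinucleotides in Bcl2 and Bcl2l1 and the letters GTAAACA in Bcl2l11. The windows lie at chr1:106714241-106714540 (minus strand), chr2:152831679-152831978 (minus strand) and chr2:128125788-128126087 (plus strand).
Bcl2: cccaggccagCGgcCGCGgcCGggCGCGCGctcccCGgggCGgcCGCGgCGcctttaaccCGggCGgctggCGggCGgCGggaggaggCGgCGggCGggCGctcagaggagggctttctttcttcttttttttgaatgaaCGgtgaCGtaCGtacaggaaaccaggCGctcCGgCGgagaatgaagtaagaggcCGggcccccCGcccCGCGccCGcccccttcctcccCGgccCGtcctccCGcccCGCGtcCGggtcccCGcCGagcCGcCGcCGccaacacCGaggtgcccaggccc
Bcl2l1: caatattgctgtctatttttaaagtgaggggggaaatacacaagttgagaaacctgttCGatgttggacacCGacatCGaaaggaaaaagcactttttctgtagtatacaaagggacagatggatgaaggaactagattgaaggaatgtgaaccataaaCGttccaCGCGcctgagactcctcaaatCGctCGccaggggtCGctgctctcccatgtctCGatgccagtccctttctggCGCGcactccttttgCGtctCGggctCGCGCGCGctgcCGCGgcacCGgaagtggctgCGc
Bcl2l11: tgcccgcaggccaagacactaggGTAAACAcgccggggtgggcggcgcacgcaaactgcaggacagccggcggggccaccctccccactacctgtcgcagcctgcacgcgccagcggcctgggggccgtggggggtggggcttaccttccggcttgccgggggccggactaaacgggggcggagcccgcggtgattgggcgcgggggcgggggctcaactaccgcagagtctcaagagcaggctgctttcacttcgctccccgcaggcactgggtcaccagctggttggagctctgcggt
The Bcl2 window held 44 CG dinucleotides and 76.0% G or C, and 2.25% of 32851 RefSeq windows of this length held as many CG. The Bcl2l1 window held 22 CG, and the other 2 Bcl2l1 windows listed held 14 and 1, against a median of 7 over all windows. Windows were found for 8 of the 9 measured members, Pmaip1 being without one here. On both strands they were searched for CACGTG, a MYC-type E-box held by 7.15% of all windows, TTCNNNGAA, a STAT-type motif held by 8.30%, and GTAAACA, a FOXO-type motif held by 3.65%. The Bcl2l11 window held GTAAACA once, starting at position -227 from the start site, and the windows of the other measured members held none of the 3 motifs. A match in letters is a description of the sequence and not of binding.

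Bcl2l2 (chr14:54883366-54890858) encodes BCL-W, an antiapoptotic protein related to BCL-XL. Its probe read 6.04, 7.34 and 8.00 log2 units (lowest, median and highest) in transfer tumors and 7.22, 7.87 and 8.56 in spontaneous tumors. Normal samples read 6.98, 7.09 and 6.48, so every spontaneous tumor was above every normal sample while transfer tumors lay on both sides. In spontaneous tumors Bcl2l2 rose by 1.09 ± 0.32 (limma adjusted p = 0.0084), a 2.13-fold higher intensity. In transfer tumors the difference was 0.29 ± 0.32 (adjusted p = 0.519), and with median scaling it was -0.18. The spontaneous call was lost with median scaling (0.67, adjusted p = 0.189) and without normal sample 3 (0.91, adjusted p = 0.08). The second tested probe, ILMN_2936517, gave 0.64 ± 0.28 in spontaneous tumors (adjusted p = 0.0736), which missed the threshold. Transfer tumors 11, 12 and 13, all aged 127 days, had the 3 highest Bcl2l1 values (8.50 to 8.68) and 3 of the 4 lowest Bcl2l2 values (6.04 to 6.66) of their group.

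Mcl1 (chr3:95656944-95663179) encodes a short-lived antiapoptotic protein on which plasma cells are known to depend. Its single probe read 10.84, 11.31 and 13.22 log2 units (lowest, median and highest) in transfer tumors and 10.94, 11.51 and 11.77 in spontaneous tumors. The 3 normal B cell samples read 11.98, 11.89 and 12.05. All 11 spontaneous tumors and 11 of 14 transfer tumors were below every normal sample. The differences were -0.47 ± 0.30 in transfer tumors (limma adjusted p = 0.239) and -0.53 ± 0.31 in spontaneous tumors (adjusted p = 0.19), and neither passed the threshold. The highest value, 13.22, was that of transfer tumor 5, and tumor 1 followed at 12.02. Without tumor 5 the difference in transfer tumors was -0.60 and passed (limma adjusted p = 0.0246), and without tumors 1 and 5 it was -0.66 (adjusted p = 0.00817). With a separate variance for each group both differences passed (adjusted p = 0.0276 and 0.0044). The spontaneous difference also passed with only its 2 groups in the fit (adjusted p = 0.02) and without transfer tumors 1 and 5 (adjusted p = 0.0339). The mean of 19 immediate early genes was 6.07 to 8.66 in transfer tumors, 6.31 to 7.03 in spontaneous tumors and 9.69 to 9.86 in normal B cells, and its part in the level of Mcl1 was not tested.

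Levels of the 4 antiapoptotic genes were also compared with each other within each tumor kind, to see whether tumors with less of one held more of another. Of 12 pairs, 6 in each kind, 0 passed after Benjamini-Hochberg adjustment and 2 had an unadjusted permutation p under 0.05 in Pearson's test. Bcl2l1 and Mcl1 ran opposite ways in the 14 transfer tumors (r = -0.62, permutation p = 0.0192, adjusted p = 0.115, and rho = -0.56, permutation p = 0.0389, adjusted p = 0.467). Without tumors 1 and 12, the farthest from the median of Bcl2l1, r was -0.67. Bcl2 and Mcl1 ran together there (r = 0.74, permutation p = 0.0169, adjusted p = 0.115, and rho = 0.43, permutation p = 0.129, adjusted p = 0.776). That relation rested on tumor 5, since r was 0.21 without it and 0.39 without tumors 5 and 9. In the 11 spontaneous tumors Bcl2l1 and Mcl1 had r = 0.55 (permutation p = 0.0666, adjusted p = 0.266, and rho = 0.33, permutation p = 0.325, adjusted p = 0.783), and r was 0.29 without tumors 2 and 5.

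Over the 25 tumors, with each kind centred on its own mean, the genes most like Bcl2 by Pearson's r were Gm11346 (0.94), Unc13d (0.94) and Il18r1 (0.94). Those most like Bcl2l1 were Hlcs (0.87), Ankra2 (0.85) and Eif4e3 (0.85), and those most like Mcl1 were Resf1 (0.92), Arhgef1 (0.90) and Dennd1c (0.89). Each of these genes had a higher r within transfer than within spontaneous tumors. To Bcl2, Gm11346 had 0.96 and 0.78 and Il18r1 had 0.96 and 0.60 in transfer and spontaneous tumors. Unc13d had r = 0.97 within transfer tumors, where tumor 5 set the range of Bcl2, and 0.18 within spontaneous tumors. Hlcs had 0.88 and 0.85 to Bcl2l1 in the 2 kinds, Ankra2 had 0.93 and 0.67, and Eif4e3 had 0.93 and 0.65. To Mcl1, Resf1 had 0.95 and 0.74, Arhgef1 had 0.93 and 0.68, and Dennd1c had 0.92 and 0.72.

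Bak1 (chr17:27019812-27028627) encodes BAK, an effector that forms pores in the outer mitochondrial membrane. Its single probe was detected in 4 of 14 transfer tumors, 1 of 11 spontaneous tumors and 0 of 3 normal samples. It read 4.60 to 5.60 log2 units in transfer tumors, 4.43 to 5.41 in spontaneous tumors and 4.67 to 4.76 in normal B cells, near the background of the array. It passed the threshold in neither comparison with normal B cells (limma adjusted p = 0.258 and 0.441), and a difference was not detectable at this signal.

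Bad (chr19:6941861-6951905) encodes a BH3-only protein that binds BCL2, BCL-XL and BCL-W and is held inactive by phosphorylation. Its single probe read 7.17, 7.84 and 8.42 log2 units (lowest, median and highest) in transfer tumors and 7.31, 7.48 and 7.63 in spontaneous tumors. In the normal samples it read 6.81, 6.93 and 6.65, so every tumor was above every normal sample. Bad rose by 1.10 ± 0.17 in transfer tumors (limma adjusted p = 6.49e-06), or 2.15-fold, and by 0.69 ± 0.17 in spontaneous tumors (adjusted p = 0.00202), or 1.62-fold. With median scaling the differences were 0.64 (adjusted p = 0.127) and 0.28 (adjusted p = 0.55), and both calls were lost.

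Bid (chr6:120893119-120917062) encodes the BH3-only protein that caspase 8 cleaves to link death receptors to mitochondria. Its probe read 6.83, 7.22 and 8.36 log2 units (lowest, median and highest) in transfer tumors and 5.25, 7.01 and 7.62 in spontaneous tumors. Normal B cells read 8.36, 8.24 and 8.43, and all 11 spontaneous tumors and 13 of 14 transfer tumors were below them. Bid fell by 1.05 ± 0.34 in transfer tumors (limma adjusted p = 0.0139) and by 1.56 ± 0.34 in spontaneous tumors (adjusted p = 0.000626). The transfer call was lost without normal sample 1 (-1.04, adjusted p = 0.0542) or normal sample 3 (-1.01, adjusted p = 0.0641). The dimmer probe ILMN_2757287 was -0.46 ± 0.18 in transfer tumors (adjusted p = 0.0442) and -0.28 ± 0.18 in spontaneous tumors (adjusted p = 0.252), so the probes disagree in size. The 2 lowest Bid values, 5.67 and 5.25, belonged to the 2 youngest spontaneous tumors, taken at 40 and 57 days.

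Bcl2l11 (chr2:128126038-128162547) encodes BIM, a BH3-only protein that removes activated and self-reactive lymphocytes. Its representative probe read 6.59, 8.76 and 9.11 log2 units (lowest, median and highest) in transfer tumors and 8.06, 8.77 and 9.44 in spontaneous tumors. The normal samples read 7.69, 7.68 and 7.86. Every spontaneous tumor and 12 of 14 transfer tumors were above all normal samples, and transfer tumors 1 (6.59) and 10 (7.55) were below them. Bcl2l11 rose by 0.98 ± 0.35 in spontaneous tumors (limma adjusted p = 0.0289), while the difference of 0.83 ± 0.34 in transfer tumors missed the threshold (adjusted p = 0.0594). Of 42 alternatives the transfer difference passed in 9 and the spontaneous difference in 36. Without transfer tumor 1 the transfer difference was 0.98 and passed (adjusted p = 0.00197), and without tumor 10 it was 0.91 and passed (adjusted p = 0.0305). The spontaneous call was lost with median scaling (0.54, adjusted p = 0.404) and without any one of normal samples 1, 2 and 3 (0.96, 0.95 and 1.04).

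The 4 Bcl2l11 probes differed in size. ILMN_1229255 read 4.70, 7.94 and 10.03 log2 units (lowest, median and highest) in transfer tumors and 7.16, 8.62 and 10.43 in spontaneous tumors. Normal samples read 5.47, 5.47 and 5.57. It rose by 2.48 ± 0.69 in transfer tumors and by 3.09 ± 0.71 in spontaneous tumors in the limma fit of every probe (adjusted p = 0.00547 and 0.000952). In transfer tumor 5 this probe was not detected while the representative probe read 8.98. The other probes, ILMN_2590638 and ILMN_3078327, passed in neither kind of tumor, with adjusted p between 0.0722 and 0.56. Over the 23 tested probes of all members, 15 were called in transfer tumors (5 higher, 10 lower) and 16 in spontaneous tumors (7 higher, 9 lower), where 34.7% and 34.3% of 22537 probes were called.

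**Figure D3:**
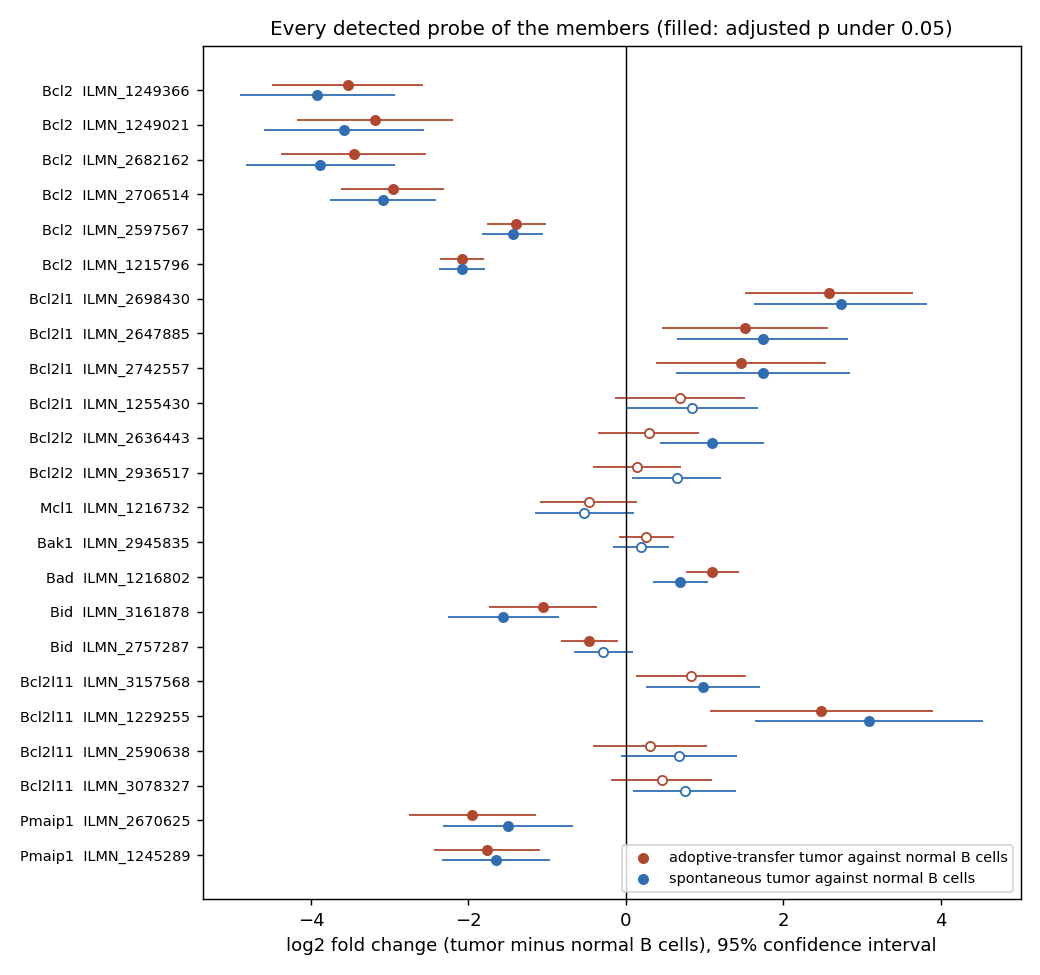
Log2 fold change, tumor minus normal B cells, with its 95% confidence interval, for each of the 23 member probes that passed the detection filter. Transfer tumors are drawn above spontaneous tumors, and filled points passed an adjusted p under 0.05. All 6 Bcl2 probes lie below 0 and 3 of 4 Bcl2l1 probes are called above it, and where the dim group was never detected the point is the fitted value and not the lower bound given in the text.

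Pmaip1 (chr18:66458604-66465558) encodes NOXA, a BH3-only protein that binds MCL1 and leads to its removal. Its probe read 4.85, 6.29 and 7.59 log2 units (lowest, median and highest) in transfer tumors and 5.47, 6.68 and 8.25 in spontaneous tumors. The 3 normal B cell samples read 8.17, 8.25 and 8.12. All 14 transfer tumors and 10 of 11 spontaneous tumors were below every normal sample, the exception being spontaneous tumor 6 at 8.25. Pmaip1 fell by 1.95 ± 0.39 in transfer tumors (limma adjusted p = 0.000232), or 3.86-fold, and by 1.49 ± 0.40 in spontaneous tumors (adjusted p = 0.00403), or 2.82-fold. Without background correction the changes were -1.06 and -0.86, with the same calls. A second probe, ILMN_1245289, also fell, with log2 fold changes of -1.76 ± 0.33 in transfer tumors and -1.65 ± 0.34 in spontaneous tumors. On single arrays the difference between Pmaip1 and Mcl1, set to 0 at the mean of the normal samples, was -2.89 to 0.46 in transfer tumors and -2.35 to 0.36 in spontaneous tumors, below all normal samples in 23 of 25 tumors.

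The tumor kinds differed from each other in 2 of 9 members, Bad and Bcl2l2, where 2.73% of all genes were called, 1.37% higher and 1.36% lower. The groups overlapped for all 9 members, where 0.0169% of all genes did not overlap (0.00847% above and 0.00847% below). Of all called genes 50.3% were higher in transfer tumors, and 32.9% with median scaling. Bad was 0.41 ± 0.11 log2 units higher in transfer than in spontaneous tumors (SE, limma adjusted p = 0.0353), and 13 of 14 transfer tumors were above every spontaneous tumor, tumor 5 being below them all. Its spread was 0.32 (SD, n = 14) in transfer tumors and 0.09 (SD, n = 11) in spontaneous tumors. Bcl2l2 was lower in transfer tumors by 0.80 ± 0.20 (-0.80, adjusted p = 0.0285), with 4 of 14 below every spontaneous tumor. Its second tested probe, ILMN_2936517, gave -0.50 ± 0.17 and missed the threshold in the limma fit of every probe (adjusted p = 0.126). Both calls were lost with median scaling, with Eif2s3y as a covariate and without the arrays that carried pancreas transcripts, while the sizes stayed close. Bad was then 0.36, 0.40 and 0.40, and Bcl2l2 -0.84, -0.69 and -0.88, against 0.41 and -0.80 here. The Bad call was also lost without any one of 10 single tumors (transfer tumors 2, 6, 11, 12 and 13 and spontaneous tumors 1, 4, 7, 8 and 10), with a difference of 0.38 to 0.41, and the Bcl2l2 call without spontaneous tumor 8, 9 or 10, with a difference of -0.78 to -0.74. For Bcl2 the difference between transfer and spontaneous tumors was 0.39 (95% interval -0.22 to 0.99), for Bcl2l1 -0.15 (-0.82 to 0.53) and for Mcl1 0.06 (-0.33 to 0.45). For Bid it was 0.50 (0.07 to 0.94, adjusted p = 0.215), for Pmaip1 -0.45 (-0.97 to 0.06) and for Bcl2l11 -0.15 (-0.60 to 0.29).

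**Figure D4:**
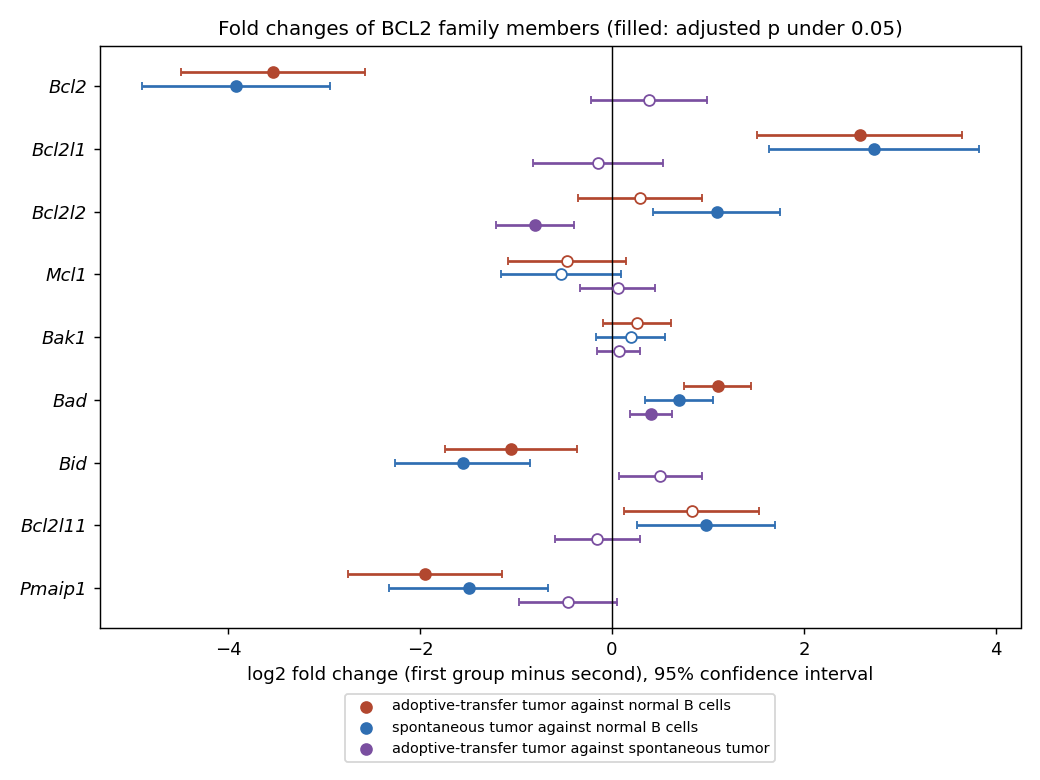
Log2 fold changes with 95% confidence intervals for the 9 members in the comparisons of transfer tumors with normal B cells, spontaneous tumors with normal B cells, and transfer with spontaneous tumors, the first group minus the second. Filled points passed an adjusted p under 0.05. Bcl2 (-3.53 and -3.92) and Bcl2l1 (2.58 and 2.73) lie farthest from 0 in opposite directions, and between the tumor kinds only Bad (0.41) and Bcl2l2 (-0.80) are filled.

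Age was given for each tumor, and a limma slope was fitted within each kind. None of the 9 members was called in either kind, where 0% of 11804 genes were called in spontaneous tumors and 0% in transfer tumors, and 1339 and 1094 genes had an unadjusted p under 0.05. Of the members, Bid in spontaneous tumors was the one with an unadjusted p under 0.05, with a slope of 1.25 ± 0.36 log2 units per 100 days (unadjusted p = 0.00474, adjusted p = 0.266).

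Other family members also differed between tumors and normal B cells. Of 10 tested genes of the wider BCL2 family, 3 were called higher and 2 lower in both kinds of tumor, where 36.5% (transfer) and 36.4% (spontaneous) of all genes were called. The same shares stand behind the counts of the lists that follow, and no count is read as particular to its list. Bbc3, which encodes the BH3-only protein PUMA, read 8.64, 9.91 and 10.51 log2 units (lowest, median and highest) in transfer tumors and 9.39, 9.54 and 10.39 in spontaneous tumors, and 6.40 to 6.61 in normal B cells. It rose by 3.31 ± 0.30 in transfer tumors and by 3.16 ± 0.31 in spontaneous tumors (limma adjusted p = 7.09e-10 and 2.77e-09), without overlap. Bik, another BH3-only gene, and the effector-like gene Bok were detected in no normal sample. Bik was at least 1.63-fold higher in transfer tumors and at least 1.47-fold in spontaneous tumors, and Bok at least 1.89-fold and 2.14-fold. Bcl2a1b and Bcl2a1d, near-identical copies of the antiapoptotic gene A1 whose probes may share signal, fell in both kinds, with log2 fold changes of -2.54 and -2.46 in transfer tumors and -2.33 and -2.46 in spontaneous tumors.

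Downstream of the mitochondria, 10 tested genes of the apoptosome and caspase list gave 3 higher and 2 lower in each kind of tumor. The 3 higher genes encode proteins released from mitochondria, namely Cycs (0.93 and 0.89), Diablo (0.82 and 0.61) and Htra2 (1.63 and 1.42), for transfer and spontaneous tumors. Casp8, the initiator caspase of death receptors, fell (-1.07 and -0.92), while Casp6 was called lower in transfer tumors (-1.19) and Casp2 in spontaneous tumors (-0.74). Without a call, Casp6 also averaged lower in spontaneous tumors (7.16 log2 units, against 8.02 in normal B cells). Casp2 did so in transfer tumors (-0.49, limma adjusted p = 0.142). Of 4 tested caspase inhibitors, 2 were lower in both kinds. Birc6 fell (-1.01 and -1.08), with 3 of 14 transfer and 1 of 11 spontaneous tumors detecting it. Birc3 averaged 4.60 log2 units in transfer tumors and 4.64 in spontaneous tumors, like values at background, and 5.99 in normal B cells. It was detected in 0 of 14 transfer tumors, where it was at least 1.73-fold lower, and in 1 of 11 spontaneous tumors, where the call was lower as well and the size is limited by background. In the death receptor arm, of 7 tested genes 1 was higher and 1 lower in transfer tumors and 2 higher and 1 lower in spontaneous tumors. Tnfrsf10b, the mouse TRAIL receptor, rose by 1.26 and 1.06, Tnfrsf1a rose by 0.76 in spontaneous tumors, and the lower gene was Casp8 again.

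**Figure D5:**
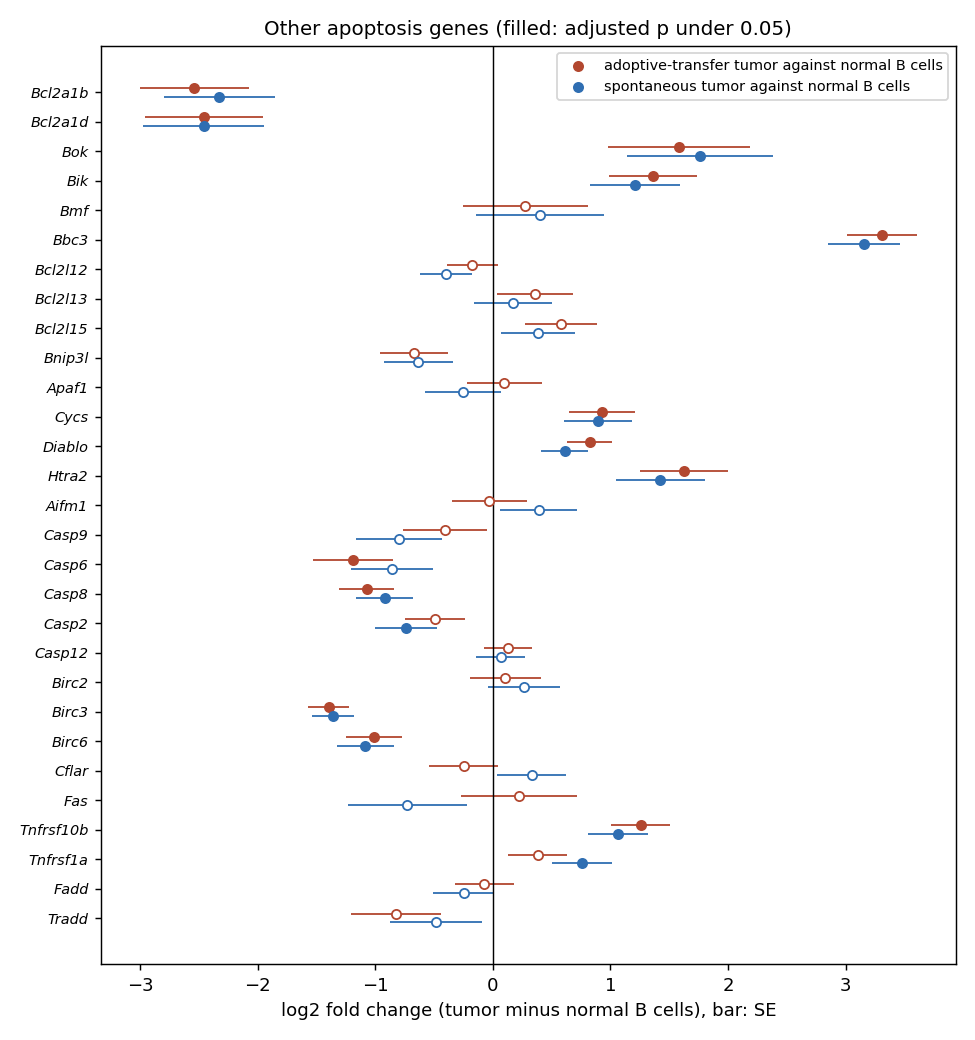
Log2 fold change, tumor minus normal B cells, with its SE, for the tested genes of the wider BCL2 family, apoptosome and caspase, caspase inhibitor and death receptor lists. Transfer tumors are drawn above spontaneous tumors, and filled points passed an adjusted p under 0.05. Bbc3 lies farthest to the right (3.31 and 3.16), and Bcl2a1b and Bcl2a1d farthest to the left. For Bik, Bok and Birc3 the point is the fitted value and not the lower bound given in the text.

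Among 6 tested genes of a list drawn up for the turnover of MCL1 protein, 1 was higher and 1 lower in transfer tumors and 0 were higher and 3 lower in spontaneous tumors. The part of each gene in that turnover was not tested. Fbxw7 rose by 0.61 in transfer tumors, Ube2q1 fell by 0.54 in transfer and by 0.63 in spontaneous tumors, and Huwe1 and Btrc fell (-0.95 and -0.81) in spontaneous tumors. Huwe1, a ubiquitin ligase of MCL1, was the only gene of these lists called between the tumor kinds, where 2.73% of all genes were called. It was 0.74 ± 0.18 higher in transfer than in spontaneous tumors (limma adjusted p = 0.0234). With Eif2s3y as a covariate 1 of all genes was called in this contrast (0 higher, 1 lower), so the Huwe1 call was lost. Huwe1 was not followed under the other alternatives. Of 12 tested transcription regulators of the family, 1 was higher and 4 lower in transfer tumors and 1 higher and 5 lower in spontaneous tumors. E2f1 rose by 2.10 and 1.96, while Foxo1, a regulator of Bcl2l11 in lymphocytes, fell (-2.91 and -2.65). Mef2c fell too (-2.19 and -2.12). Rel, an NF-kB subunit that acts on Bcl2l1 and A1, was called lower in both kinds, with means of 4.78 log2 units in transfer tumors, 4.81 in spontaneous tumors and 6.76 in normal B cells. It was detected in 1 of 14 transfer tumors, 1 of 11 spontaneous tumors and 3 of 3 normal samples, so its tumor level is at background and the size of its change is not resolved. Median log2 fold changes of this list were -0.78 and -0.75, against 0.10 and 0.08 for all genes.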

How the data were processed

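The members and all lists were chosen with earlier results of these data known. Per the file headers, the authors deposited a table of linear probe intensity with a detection score per array, not background-corrected, and a table of log2 values. The deposited log2 columns share one distribution with a median of 7.15 and rank probes as the intensities do, as quantile normalization leaves them. Partek is listed in the submitters' processing notes, and its role is not given in the sources used here. From the linear intensities, background was corrected with neqc (detection p as 1 minus the score, offset 16), followed by quantile normalization and log2, in R 4.3.3 with limma 3.58.1. A gene was represented by its brightest probe and tested if this was detected on at least 3 arrays. One limma model over 28 arrays gave 3 two-sided contrasts, adjusted over 11804 genes, and a second fit covered 22537 probes. Correlations used 100000 permutations. Folds against a group with no detected array are lower bounds, with each array set to no less than its lowest detected signal. Genes were named by rule: every member with its probes, up to 3 called genes at each end of each list, and the 3 genes most like Bcl2, Bcl2l1 and Mcl1. The single tumors described were picked after their values were seen. The fit was tested on simulated data. Chip or slide is not given in the sources used here. The number of arrays limits the precision.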

Additional observations from a re-analysis of the deposited data

Results flagged for a closer look

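The effect against normal B cells differed between the tumor kinds, by limma's contrast of transfer with spontaneous tumors, for Bad (0.41, adjusted p = 0.0353) and Bcl2l2 (-0.80, adjusted p = 0.0285). Of 43 alternatives the Bad difference passed in 27 and the Bcl2l2 difference in 37, with adjusted p from 0.00215 to 0.504 and from 0.00958 to 0.554. The second tested Bcl2l2 probe, ILMN_2936517, missed the threshold in this contrast (-0.50, adjusted p = 0.126 in the limma fit of every probe). Tissue coincides with tumor kind and cannot be told apart from it.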

How the results depend on the processing

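Of 14 called member differences, 7 kept their call under every alternative run and 0 changed sign. Those 7 were Bcl2, Bcl2l1 and Pmaip1 in both kinds of tumor and Bid in spontaneous tumors. Under the alternative that asks for detection on at least 14 arrays Bcl2 was not tested, since its probe was detected on 13. With median scaling 4 members were called in spontaneous tumors against normal B cells, against 7 here. Between transfer and spontaneous tumors, against 2 here, the count was 0 with median scaling (0 of the probes too), 1 with only these 2 groups in the fit, 1 with trend and robust variances, 1 with the replicate number as a block, 0 with Eif2s3y as a covariate and 0 without arrays with pancreas transcripts, an alternative chosen after seeing the data, as was leaving transfer tumor 5 out of the correlations. Leaving out each sample in turn gave 5 to 7 members called in spontaneous tumors, 0 to 2 between the kinds and 0 for age. In transfer tumors the fewest was 4, and a single call was gained without transfer tumor 5 (Mcl1) and without transfer tumor 1 or 10 (Bcl2l11). With transfer tumors 1 and 5 both left out the counts were 7 in transfer tumors and 8 in spontaneous tumors. Deviations of same-numbered samples from their group means had r between -0.08 and 0.22 over 17 pairs, 3 of them above 0.1. Differently numbered samples were not compared in this way, so these values cannot decide whether the numbers pair the samples. With the replicate block the Bcl2l11 difference in spontaneous tumors was 0.69 (adjusted p = 0.221); the block changed no other call but that of Bad between the kinds. With Eif2s3y as a covariate it was 0.99 and also lost its call. Uncalled differences that changed sign were Bcl2l2 in transfer tumors against normal B cells with median scaling (-0.18), and, between the kinds, Bcl2l1 without transfer tumors 1 and 5 (0.129), and Mcl1 with median scaling (-0.0148), with fibroblast and macrophage covariates (-0.0148), without transfer tumors 1 and 5 (-0.126) and without pancreas arrays (-0.0778). Leaving out each sample in turn moved Bcl2l1 between the kinds from -0.368 to 0.0192 (above 0 without transfer tumor 1), Mcl1 from -0.0721 (without transfer tumor 5) to 0.111 and Bcl2l11 from -0.217 to 0.00167 (without transfer tumor 1). The causes were not tested. Without background correction sizes of called members were smaller, with Pmaip1 at -1.06 and -0.86, Bid at -0.68 and -0.92 and Bad at 0.65 and 0.38 in transfer and spontaneous tumors. Over all genes the called count was 6532 and 7072 with separate group variances (transfer and spontaneous tumors against normal B cells), 1950 in transfer tumors with Eif2s3y as a covariate, and between the kinds 1 with that covariate, 140 with median scaling, 207 with 2 groups in the fit, 172 with the block, 584 with fibroblast and macrophage covariates, 67 without pancreas arrays, 565 without transfer tumor 5, 707 without tumors 1 and 5, and 213, 197 and 170 without spontaneous tumor 4, 8 or 10, against 322 here. Bcl2, Rel, Birc3 and Birc6 in most tumors and Bak1 throughout lie near background, which limits the size of their differences.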
